A study of Mus musculus with 79 samples.

Results

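A set of 150 genes whose muscle transcript levels were the most highly correlated between 2 diets across strains was chosen by the data themselves. For each of 22335 named symbols on the array, the probeset with the highest mean was taken, and Pearson's r between the chow diet (CD) and high fat diet (HFD) values was computed over the 37 strains with an array on each diet. The symbols were ranked by r and the 150 highest were kept, leaving out the H2-, Mcpt, Nduf, Col and Psm families and Nnt, Cox7a2l, Dhtkd1 and Bckdhb. Because r chose the genes, the values of r, the strain ranges and the strain clusters described here are a description and carry no test.

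The mice were C57BL/6J (B6), DBA/2J (D2) and BXD strains, a family of inbred lines bred from crosses of B6 and D2, so that each BXD strain is fixed for the allele of either parent at nearly every locus. All were males, fasted overnight and killed at 29 weeks of age. The CD groups (42 strains) ate a standard chow throughout, and the HFD groups (37 of the same strains) ate a high fat diet from 8 weeks of age. Each array held quadriceps RNA pooled evenly from about 5 animals of 1 strain on 1 diet, so a strain had 1 array per diet and its own animal to animal spread was not measured. The 79 arrays fell into 2 labelled batches, with the microarray work done at separate times, and 29 of the 37 paired strains had both arrays in the same batch. Every array had been scaled to a mean of 8.0 and an SD of 2.0, and values are given in these deposited units, which behave as a log-type measure but cannot be read as fold changes.

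A transcript can differ between strains in the same way on both diets when a DNA variant near the gene changes how much of it is made, how stable it is, or how well a probe binds it. Variants of this kind are inherited as 2 parental forms in a BXD strain, and neighbouring genes are inherited together. Transcript levels can also follow a distant variant, or another trait that differs between strains. None of these was read from DNA in the arrays.

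The levels of skeletal muscle markers (10 genes, among them Acta1 and Ckm) averaged between 14.5 and 14.8 on all arrays. The adipocyte list (8 genes) had a median of 9.90 on CD and 10.39 on HFD, and the liver list, whose median was 7.46 on CD, reached 9.74 on a CD array and 9.67 on an HFD array (HFD median 7.40). Over the 37 strain means, an absolute correlation of at least 0.5 with the adipocyte list was reached by 1 of the 150 genes (0.667%, against 2.08% of all named symbols) and with the macrophage list by 2 (1.33% against 4.09%). None of the 150 reached it with the muscle list (10.7% of all named symbols), the brain list (11.2%), the mast cell list (1.93%), the red blood cell list (0.618%) or the liver list (0.537%).

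The highest r was 0.973, the median of the 150 was 0.875 and the lowest was 0.832. The median over all named symbols was 0.156. Within the 12 strains with both arrays in batch 1 the genes had a median r of 0.906, within the 17 strains of batch 2 it was 0.902, and over the 8 strains whose arrays lay in different batches it was 0.880. The corresponding medians of all named symbols were 0.256, 0.159 and 0.102. Just inside the limit stood Srp54b (r = 0.834), Tmco4 (0.834), Cd59a (0.833), Cdk5rap1 (0.832) and Sft2d2 (0.832). Just outside it stood Aldh7a1 (0.831), Anapc1 (0.831), Rer1 (0.831), Snap23 (0.830) and LTR_Affy_10556018 (0.830), so the 150th place marks no break. Leaving out the most influential strain lowered r by a median of 0.011, and by at least 0.05 for 2 genes, Srp54b (0.766 without BXD43) and Srp54c (0.798 without BXD43). Ranked by Spearman's rho in place of Pearson's r, 89 of the 150 remained among the 150 highest.

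The spread between strains was wide. The strain means (the mean of the CD and HFD values) of a gene ranged over a median of 1.26 units, from 0.496 for Capzb to 6.87 for Mela, against a median of 0.490 over all named symbols. The SD between strains had a median of 0.376 against 0.114, whereas the SD of the HFD minus CD difference within strains was 0.189 against 0.199. The last quantity is 0 for a diet shift shared by all strains, and r is made of both SDs, so they describe the choice. Their mean levels ran from 5.30 to 13.96 with a median of 9.54, and 16 of them were dimmer than the median probeset.

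For 102 of the 150 genes (68.0%) the 37 strain means fell into 2 separate clusters, by a mixture of 2 normal components with a drop in the Bayesian information criterion of at least 10 and Ashman's D above 2. Among all named symbols 248 did so (1.11%). From the HFD values alone 63 of the 150 genes had separate clusters, and from the CD values alone 72. The cluster means lay a median of 0.789 units apart (range 0.382 to 3.41), and by at least 1 unit for 30 genes. The smaller cluster held a median of 15 of the 37 strains. For 79 of the 102 genes the clusters did not overlap on CD or on HFD. Over the 203 clusters of at least 6 strains, the r between diets inside a cluster had a median of 0.260 (range −0.554 to 0.803). Splitting strains by their own means narrows the range inside a cluster and lowers r by construction.

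**Figure D1:**
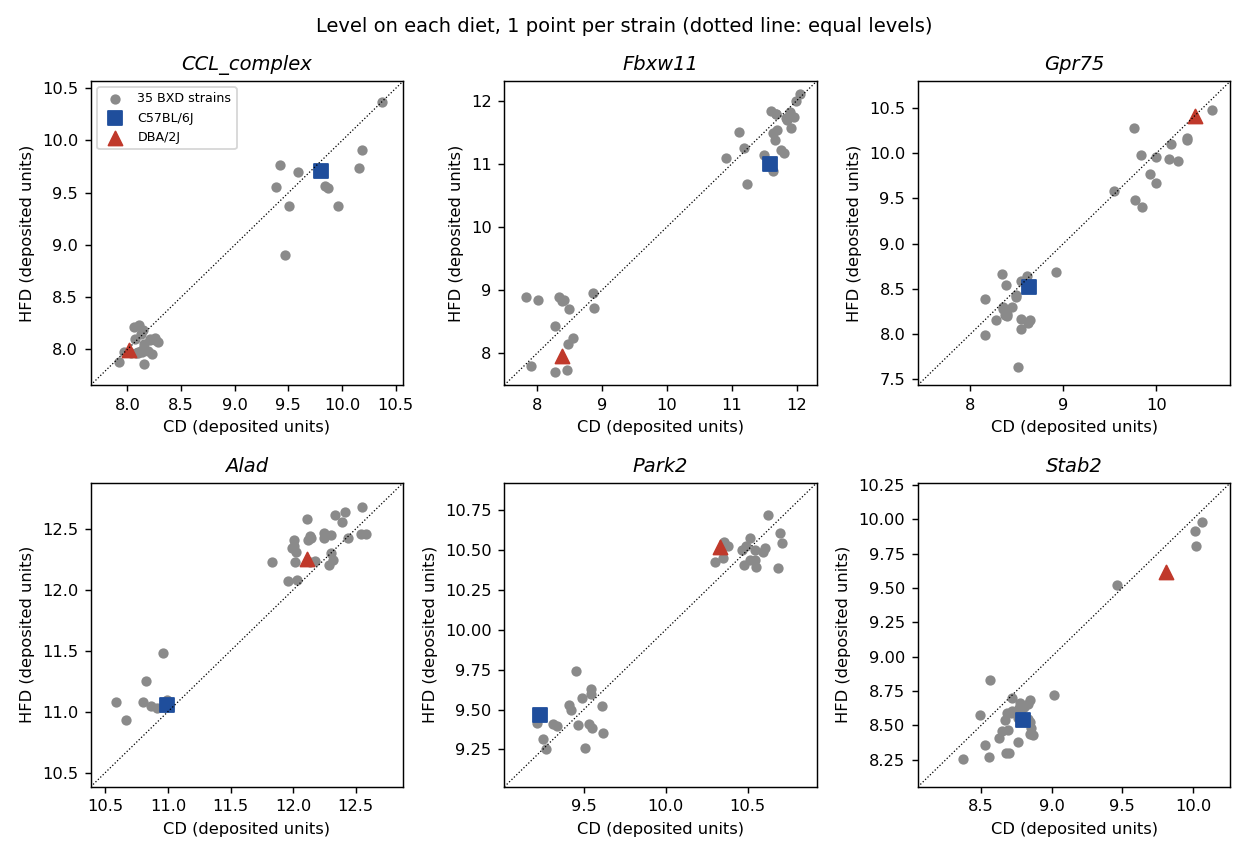
Level on CD (x axis) and on HFD (y axis), both in deposited units, of 6 genes in the 37 paired strains, with 1 point per strain, B6 as a square and D2 as a triangle. The strains form 2 clouds on the line of equal levels and the parents lie in different clouds; for Fbxw11 15 strains are low and 22 high, and for Stab2 32 are low and 5 high.

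The highest r belonged to CCL_complex, a name that the file gives to 13 probesets of a chemokine cluster. On CD it lay between 7.93 and 8.29 in 25 strains and between 9.38 and 10.37 in the other 12, and on HFD between 7.86 and 8.24 and between 8.90 and 10.37 in the same strains. B6 was in the higher cluster (9.80 on CD, 9.71 on HFD) and D2 in the lower (8.01 and 8.00). No strain lay between the clusters on either diet.

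Fbxw11 and Park2 came next by r. Fbxw11, an F-box protein that recruits substrates to an SCF ubiquitin ligase, had r = 0.968. Its 15 low strains lay between 7.82 and 8.87 on CD and its 22 high strains between 10.92 and 12.04, and on HFD the ranges were 7.69 to 8.95 and 10.68 to 12.11. B6 was high (11.58 and 11.001) and D2 low (8.38 and 7.95), so the empty space between the clusters was wider than either cluster. Of its other probesets, one had nearly the same strain means (r = 0.9999) and one did not (r = 0.10), so the split was not seen by every probeset of the gene. Park2, which encodes the ubiquitin ligase parkin of mitochondrial quality control, had r = 0.967 and the opposite parental direction, with B6 at 9.23 and 9.46 and D2 at 10.33 and 10.52 on CD and HFD. Its 18 low and 19 high strains did not overlap, but its other probeset did not follow the one used here (r = −0.02 between strain means). That other probeset had 0 of its 10 nearest numbered neighbours on the chromosome of Park2, so whether it reads Park2 is uncertain. Asb15, further down at rank 13, a SOCS box protein found mainly in striated muscle, had r = 0.945 with B6 at 11.64 and 11.88 and D2 at 10.19 and 10.20.

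Among enzymes, Alad, which makes porphobilinogen in heme synthesis and is known to be duplicated in DBA/2 mice, had r = 0.963. On CD 9 strains lay between 10.58 and 10.995 and 28 between 11.83 and 12.58, and on HFD the same strains lay between 10.93 and 11.48 and between 12.07 and 12.68. B6 was low (10.995 and 11.05) and D2 high (12.11 and 12.25). Npl, which degrades sialic acid, had r = 0.935 and was lower in B6 (8.72 and 8.34) than in D2 (9.00 and 9.31). Parp3, a DNA repair ADP-ribosyltransferase, had r = 0.951 and was higher in B6 (11.03 and 10.68) than in D2 (10.12 and 10.03), as were Lancl1 (r = 0.932, a glutathione binding protein) and Pgap2 (r = 0.927), which acts in the maturation of GPI anchors.

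Receptors formed another part of the 20 highest. Unc5a, a receptor for netrin, had r = 0.963, with 17 strains between 7.69 and 8.22 and 20 between 9.10 and 10.24 on CD. B6 stood at 9.52 and 9.83 and D2 at 8.15 and 7.91. Gpr75, a G protein-coupled receptor, had r = 0.957 and was low in B6 (8.63 and 8.52) and high in D2 (10.42 and 10.41). Stab2, a scavenger receptor of sinusoidal endothelium that takes up hyaluronan, had the most uneven split. Its CD values lay between 8.37 and 9.02 in 32 strains and between 9.47 and 10.07 in 5, D2 among them (9.81 on CD, 9.62 on HFD), whereas B6 was in the large cluster (8.80 and 8.54).

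The rest of the 20 were of mixed roles. Ifi202b, an interferon-inducible gene of the p200 family, was one of the dimmest (mean 5.90) and was lower in B6 (5.43 and 4.70) than in D2 (6.59 and 6.42). Gtf3a, the factor that starts 5S ribosomal RNA transcription, was higher in B6 (10.39 and 10.40) than in D2 (9.48 and 9.62), while Rhobtb3, an atypical small GTPase with BTB domains, was lower in B6 (9.90 and 9.87) than in D2 (10.50 and 10.65). Rplp0, a protein of the ribosomal stalk (r = 0.923), was higher in B6 but its 37 strain means formed no separate clusters. EG665955, annotated as an endogenous viral sequence, ranged over 5.30 units, and its clusters of 7 and 30 strains did not part the parents, which were both high (B6 at 10.12 and 10.02, D2 at 11.22 and 11.17). Ccdc85a and C5orf34 were higher in B6, and 4832428D23Rik was higher in D2 (B6 at 6.96 and 7.20, D2 at 9.34 and 10.34). Every one of these 19 genes with clusters had the parents on opposite sides except EG665955.

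Parental placement was the pattern that the clusters shared. Of the 102 genes with separate clusters, 98 had B6 and D2 in different clusters, B6 in the higher for 53 and D2 in the higher for 45. The other 4 were EG665955, Lsm4, 6430601O08Rik and Cdk5rap1. To keep the parental arrays out of the clustering, the clusters were also drawn over the 35 BXD strains alone. Then 103 of the genes had separate clusters and in 95 of them (92.2%) the parents lay on different sides of the limit between the clusters. With the genes also chosen over the 35 BXD strains alone, 104 of 150 had separate clusters and 95 of these (91.3%) parted the parents, against 58 of 140 other symbols with separate clusters (41.4%). The difference between the parents was a median of 0.952 of the distance between the cluster means.

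**Figure D2:**
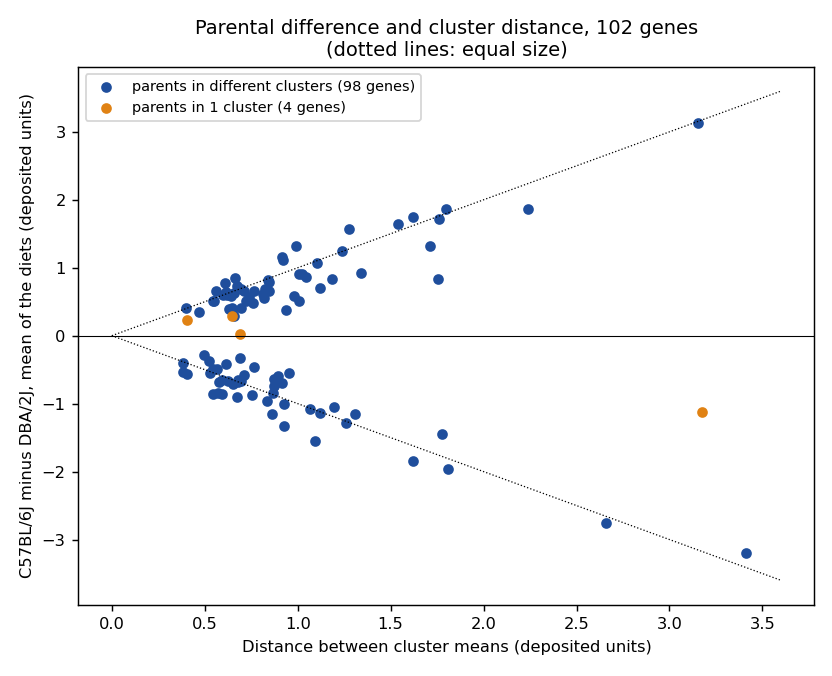
Difference between the parents (B6 minus D2, mean of the diets, y axis) against the distance between the cluster means (x axis), both in deposited units, for the 102 genes with separate clusters, with 1 point per gene. The 98 genes with the parents in different clusters follow the lines of equal size above and below 0, whereas the 4 with both parents in 1 cluster lie nearer to 0.

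B6 and D2 differed in the same direction on both diets for 141 of the 150 genes, 77 higher in B6 and 64 higher in D2. Over all named symbols 55.7% kept their direction. The median size of the difference was 0.612 units against 0.097 over all named symbols, and 70 genes differed by at least 0.5 units on both diets. The 5 genes furthest above D2 in B6 were Fbxw11 (3.13 units on the mean of the diets), Pttg1 (1.86), Trim12a (1.86), CCL_complex (1.75) and Tmem45b (1.72). Those furthest below were Mela (−3.19), 4832428D23Rik (−2.76), Opn1mw (−1.97), Gpr75 (−1.84) and Zmynd17 (−1.80). Pttg1 encodes securin, which inhibits separase until anaphase, Trim12a is of the tripartite motif family and Opn1mw is a cone opsin. Of these 10 values, those of Pttg1 and Tmem45b moved by over 1.5 times when 1 array was left out. Pttg1 stood at 0.947 units without the D2 array on HFD and at 2.78 without that on CD, and Tmem45b at 1.01 without the B6 array on HFD.

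The parental arrays entered the choice of the genes, so the parents were tested over the 150 genes with the highest r in the 35 BXD strains alone, 142 of which were also among the 150 described here. In the 4 parental arrays (limma, strain plus diet, which leaves 1 residual degree of freedom) none of the 150 chosen in this way, and so none of the 142, passed a Benjamini-Hochberg adjusted p of 0.05, and of all 35556 probesets 4 passed (0.0112%). At an unadjusted p below 0.05 in the same limma fit stood 122 of the 150 (81.3%), against 8.46% of all probesets. The smallest adjusted p (limma) was that of Fbxw11, 0.0521, for a B6 minus D2 difference of 3.13 ± 0.12 (SE), and it was called after median centring (limma adjusted p = 0.0452). A limma fit over all 79 arrays called 95 of the 142 and 1.26% of all probesets, but its spread comes from the strain pairs that chose the genes, so nothing is read from that count. By size alone, 93 of the 150 (62%) and 5.05% of all probesets differed by at least 0.5 units.

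The D2 array on CD stood apart over these genes. For the 98 genes with the parents in different clusters, the place of each array was measured between the mean of its own cluster (0%) and that of the other (100%) on its diet, leaving the strain itself out of the means. The median place of the D2 array on CD was 13.8%, whereas the other 73 arrays lay between −8.59% and 7.82%, the D2 array on HFD at −6.84%. The shift lay in the 53 genes where D2 was in the lower cluster (median 27.2% on CD, −3.78% on HFD), and was small in the 45 where it was in the higher (2.90% on CD). It was over 25% for 34 of the 98 genes, against at most 27 and a median of 10 on the other arrays.

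**Figure D3:**
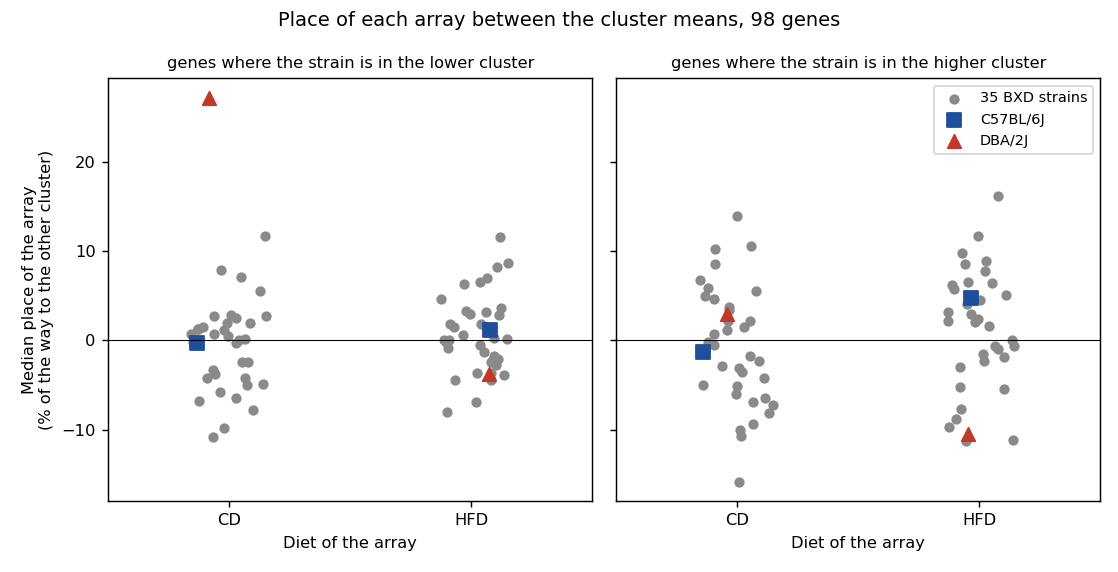
Median place of each array on the way from its own cluster mean (0%) to the other cluster mean (100%), by diet (x axis), for genes where the strain is in the lower cluster (left) or the higher cluster (right), with 1 point per array. The D2 array on CD lies at 27.2% on the left, above all other arrays.

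The next 3 genes were picked after their values were seen, as examples of parents nearer to each other on CD than on HFD. Pttg1 was at 9.58 in D2 on CD and 7.34 on HFD, with B6 at 10.69 and 9.95. Creg1, a secreted glycoprotein of the endolysosome, was at 10.82 and 10.14 in D2 and at 11.62 and 11.57 in B6. Hspa8, the constitutive heat shock cognate, was at 13.87 in D2 and 13.86 in B6 on CD, and at 13.31 and 14.33 on HFD. Of the 84 genes higher in B6 on the mean of the diets, 72 were higher in D2 on CD than on HFD and 45 were so in B6, with a median HFD minus CD difference of −0.23 units in D2 and −0.02 in B6. The parental difference was larger on HFD than on CD for 105 of the 150 genes, with a median size of 0.689 and 0.511 units, whereas over all named symbols the medians were 0.116 and 0.138. What set this array apart was not tested.

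The 5 BXD strains with a CD array alone (BXD50, BXD60, BXD92a, BXD95 and BXD101) had no part in the choice of the genes. Of their 510 values at the 102 genes with clusters, 459 (90%) fell inside the CD range of either cluster, 232 in the lower and 227 in the higher. A further 28 fell between the ranges and 23 beyond both. BXD101 had 100 of its 102 values in a range and BXD92a had 87. The ranges cover all CD values of the paired strains and leave out only the space between the clusters. A value of any further strain can therefore fall inside a range without following a cluster. No share was computed for a paired strain left out of the ranges, so the 90% has no baseline and carries no test. BXD92a was also close to BXD65 on CD (r = 0.924), a strain that helped to set the ranges.

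The strain pattern was also matched between the diets. For each strain the 150 genes were chosen again without it, and its HFD array was then correlated with all 42 CD arrays over gene-centred values. The highest r was with the CD array of its own strain for 37 of 37 HFD arrays, at 0.771 (BXD69) to 0.950 with a median of 0.891. The best other strain reached a median of 0.436 and lay closest for BXD65 (0.920 with its own CD array, 0.908 with that of BXD92a) and BXD96 (0.874 with its own, 0.828 with BXD48). Over the genes with clusters, chosen with all strains, the 2 arrays of a strain fell in different clusters in 61 of 3774 cases (1.62%). Of these cases 11 were in D2, the most of any strain, and 7 in BXD69. The values of each diet were first shifted to a shared mean for the gene, and the cut came from the mean of the same 2 arrays. The genes were also chosen by their match between diets, so a low share is built in.

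Some BXD strains were close to each other over the genes. Among 861 pairs of CD arrays the median r was −0.03, and 7 pairs reached 0.6, with the next at 0.519. BXD65 and BXD92a had r = 0.924, BXD48 and BXD96 0.827, BXD80 and BXD103 0.820, BXD65 and BXD97 0.814, BXD92a and BXD97 0.759, BXD73 and BXD103 0.723, and BXD73 and BXD80 0.695. The 7 pairs thus joined 8 strains into 3 sets, of BXD48, BXD65 and BXD73. The same pairs reached 0.650 to 0.804 on HFD where both strains had an array. As background, which no label here states, BXD96, BXD97, BXD92a, BXD80 and BXD103 are known as sublines of these 3 strains. With BXD96, BXD97, BXD80 and BXD103 left out, a choice made after these values were seen, 135 of the 150 genes remained among the 150 highest.

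Many of the genes shared a strain pattern with another. At an absolute r of at least 0.8 between strain means, 60 of the 150 fell into 25 groups, 2 of 4 genes, 6 of 3 and 17 of 2, and 90 stood alone. The number in groups was 28 with Spearman's rho and 30 at a threshold of 0.9. Of the 42 pairs so linked 31 ran in parallel and 11 in opposite directions. Chromosome and gene order played no part in the choice. Both genes could be matched to RefSeq in 32 of the linked pairs, and in 29 of these (90.6%) they lay on the same chromosome, against 6.13% of the 8911 pairs of matched genes. Placed by their nearest numbered probesets instead, 35 of all 42 linked pairs lay on 1 chromosome. Mela with Lysmd2 (r = 0.903) was among those that did not. Between the linked genes lay a median of 21 other protein-coding genes (range 1 to 163, 27 pairs). The median absolute r fell from 0.714 for pairs with at most 20 genes between them (32 pairs) to 0.384 at 21 to 100 (93 pairs), 0.271 at up to 300 and 0.144 beyond 300 (233 pairs), near the 0.136 of pairs on different chromosomes.

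Among the 8 groups of 3 or 4 genes, the one with the widest distance between cluster means joined Fbxw11 with Gpr75 (r = −0.975 between strain means) and Ccdc85a (0.920), a coiled-coil protein. All 3 genes lie on 1 chromosome with 17 to 39 protein-coding genes between them. Strains high in Fbxw11 and Ccdc85a were low in Gpr75, with 15 strains low for Fbxw11, 16 for Ccdc85a and 22 for Gpr75. Their promoters are shown because these neighbours moved together and against each other. The sequences are RefSeq's, of build GRCm38.p6, from 250 bases before to 50 after the gene start, written from 5′ to 3′ on the gene's strand. Capitals mark any match, on either strand, to the CCAAT box, to the letters TATAAA of the TATA box, to GGGCGG of the GC box or to CACGTG of the E-box, none of which contains another.

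Fbxw11 (chr11:32642305-32642604, plus strand): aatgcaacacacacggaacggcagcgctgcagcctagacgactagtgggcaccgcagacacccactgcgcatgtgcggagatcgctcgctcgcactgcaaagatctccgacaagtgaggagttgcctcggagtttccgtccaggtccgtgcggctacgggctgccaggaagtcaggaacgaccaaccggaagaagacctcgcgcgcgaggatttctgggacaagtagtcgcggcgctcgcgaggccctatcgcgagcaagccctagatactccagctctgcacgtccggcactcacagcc
Gpr75 (chr11:30885108-30885407, plus strand): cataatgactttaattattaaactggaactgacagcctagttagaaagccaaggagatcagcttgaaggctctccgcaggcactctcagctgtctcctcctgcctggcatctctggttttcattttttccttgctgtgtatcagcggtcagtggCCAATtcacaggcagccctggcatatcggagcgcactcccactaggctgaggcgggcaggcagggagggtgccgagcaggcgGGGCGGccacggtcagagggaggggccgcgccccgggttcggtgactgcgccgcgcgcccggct
Ccdc85a (chr11:28584275-28584574, minus strand): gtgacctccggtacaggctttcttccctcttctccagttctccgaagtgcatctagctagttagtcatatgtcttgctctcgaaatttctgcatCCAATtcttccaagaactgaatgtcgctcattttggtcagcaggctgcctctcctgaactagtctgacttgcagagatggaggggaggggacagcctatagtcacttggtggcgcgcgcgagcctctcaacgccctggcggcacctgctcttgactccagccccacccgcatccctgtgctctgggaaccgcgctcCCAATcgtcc

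The Fbxw11 window held none of these motifs, that of Gpr75 a CCAAT box and a GC box, and that of Ccdc85a CCAAT boxes. The windows are the reference sequence, which is that of B6, and show no strain difference. Over 135 promoters matched to the genes the GC box was found in 54.8% (35.7% of all 32851 promoters), the CCAAT box in 42.2% (37.4%), the TATA box in 17.8% (13.6%) and the E-box in 9.63% (7.15%). A match is a run of letters and not a bound site.

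The 2 groups of 4 were Pgap2, Gm4980 and Trim12a with Pak1 running against them, and Pla2g4e, Pldn and Tmem87b with Gm10762 against them. Pak1 is a kinase downstream of Rac and Cdc42, and its r with Pgap2 was −0.817. Pla2g4e is a cytosolic phospholipase A2, and Pldn acts in the biogenesis of lysosome-related organelles. Tmem87b was linked to each of the other 3, at 0.857 with Pla2g4e, 0.877 with Pldn and −0.901 with Gm10762. With 8 groups of 3 or 4 genes the fifth place was tied, and all 8 are given.

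**Figure D4:**
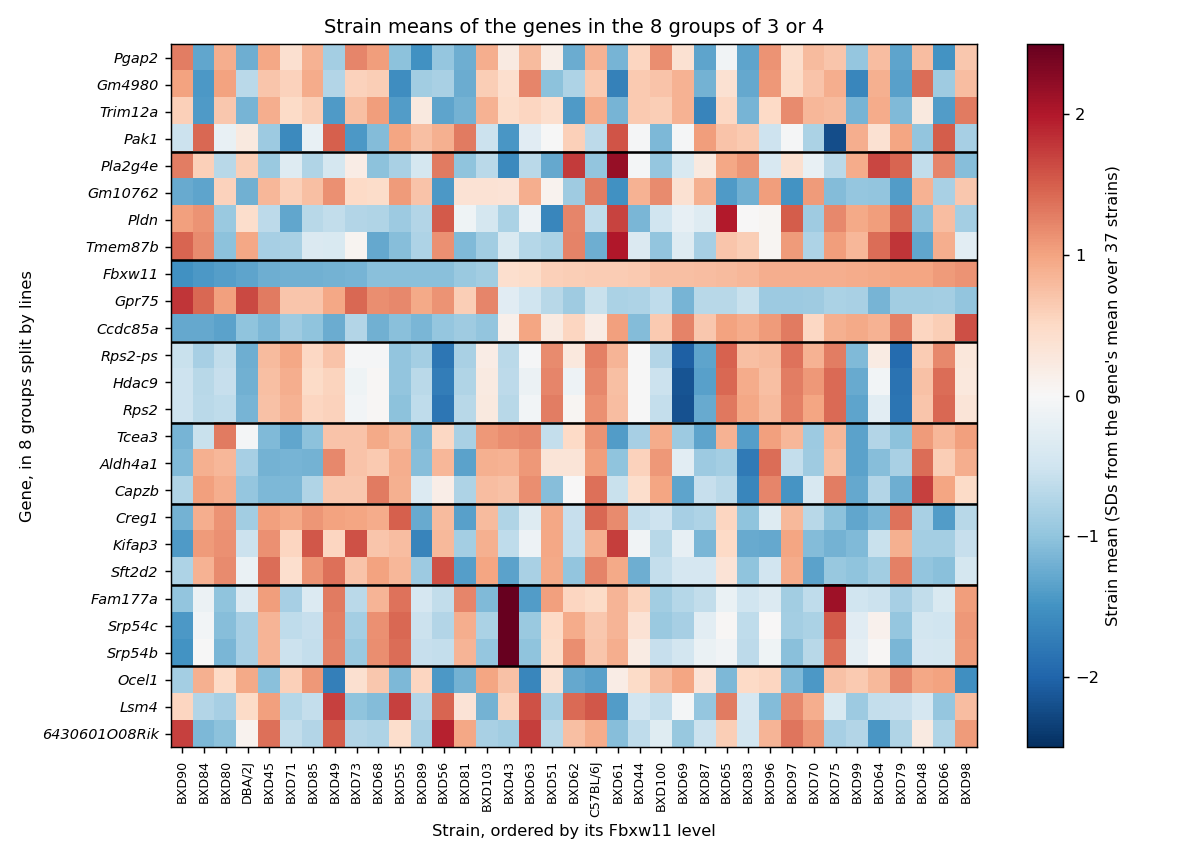
Strain means of the 26 genes in the 8 groups of 3 or 4 (rows, groups split by lines) in the 37 strains (columns, ordered by Fbxw11), in SDs from the gene's own mean, with values beyond 2.5 SDs drawn as 2.5. Rows of a group share a pattern or its reverse, the order of strains differs from group to group, and BXD43 is far above the rest for Fam177a, Srp54c and Srp54b.

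Srp54b and Srp54c, copies of a subunit of the signal recognition particle, were grouped with Fam177a at r of 0.948 to 0.992, with 1 to 4 protein-coding genes between them. BXD43 was the highest strain for all 3, at a strain mean of 12.67 for Fam177a, 12.47 for Srp54c and 12.59 for Srp54b, where the medians were 11.46, 11.60 and 11.79. Transcripts of near-identical copies can bind the same probes, so Srp54b and Srp54c may share signal. Creg1, Kifap3 (a kinesin adaptor) and Sft2d2 were linked at 0.879 to 0.932. Tcea3, a transcription elongation factor, Aldh4a1, a mitochondrial enzyme of proline breakdown, and Capzb, which caps actin filaments at the Z line, were joined through Aldh4a1 (0.819 with Tcea3, 0.888 with Capzb). Ocel1 ran against Lsm4 (−0.847) and 6430601O08Rik (−0.864).

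The group of Rps2, Rps2-ps and Hdac9 was of another kind. Rps2 is a protein of the small ribosomal subunit, Rps2-ps a pseudogene of it and Hdac9 a histone deacetylase of muscle and heart. The strain means of Hdac9 and Rps2 had r = 0.998, although by name they lie on different chromosomes. The Hdac9 probeset used here had 0 of its 10 nearest numbered neighbours on the chromosome of Hdac9, while the other Hdac9 probeset had 10 of 10 and did not follow it (r = −0.08 between strain means). The same check put at least 8 of 10 neighbours on the gene's chromosome for 124 of the 134 genes that could be matched, and 0 for 8, among them Rplp0, Glo1, Hdac9, Cox18, Rps2, Acp1 and Hjurp. For Rplp0, Glo1, Cox18 and Hjurp another probeset with 10 of 10 neighbours on the gene's chromosome followed it (r = 0.980, 0.999, 0.985 and 0.940 between strain means), and for Rps2 2 such probesets did (0.977 and 0.868). For Acp1 such a probeset ran in the opposite direction (−0.89) and for Hdac9 it did not follow, and these names are uncertain here. Gtf3a with Gm8840 and Sfi1 with Fbxo44 were the other linked pairs on different chromosomes by name. Gm3579 and LOC433762 held identical values and are a single measurement, although the counts above hold both names. Counted once, 58 of 149 genes fell into 24 groups, with 41 linked pairs, 30 of them in parallel.

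Of 30 genes with more than 1 probeset, 20 had another with an absolute r of at least 0.8 between strain means and 10 had none, among them Hdac9, C5orf34 (−0.25) and Park2, whose other probeset is of uncertain place. The other 120 had a single probeset. A sequence variant under a probe changes its signal without any change of the transcript, and its part in the clusters was not tested.

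A list of 12 genes with a known inherited difference between these parents or a known allele of either, which leaves out Alad, held 1 of the 150. Glo1, which detoxifies methylglyoxal and is duplicated in some inbred strains, had r = 0.913 at rank 27, with D2 (11.35 and 11.61) above B6 (11.11 and 10.92). Myo5a, the myosin of the dilute coat colour of D2, stood just outside at rank 169 (r = 0.822), and Gpnmb, truncated in D2, at rank 173 (r = 0.820). The other 9, among them Ahr, Alpl, Hc and Tyrp1, had r below 0.55.

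A diet shift shared by all strains does not enter r, but the spread it was tested against does: the strain spread without a strain block, and the spread of HFD minus CD within strains with one. The numbers of calls and the p-values of the genes below therefore carry the choice, and the shares over all probesets are printed beside them with no comparison drawn. In limma on all 79 arrays with a batch term, 3 of the 150 genes (2.00%) passed an adjusted p of 0.05, against 38.1% of all 35556 probesets (18.9% higher and 19.3% lower on HFD). Lphn1, an adhesion G protein-coupled receptor, was higher on HFD by 0.20 ± 0.05 units (SE; limma adjusted p = 0.00172), in 35 of 37 strains. Cd59a, an inhibitor of complement, was higher by 0.21 ± 0.08 (limma adjusted p = 0.0442), in 31 of 37, and this call was lost after quantile normalization (adjusted p = 0.0541) and with dim probesets removed (0.0527). Aldh4a1 fell by 0.27 ± 0.08 units on HFD (limma adjusted p = 0.00652), in 34 of 37.

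The count turned on how strain was treated. With strain as a block, which pairs the arrays of a strain and drops the 5 strains without an HFD array, 60 of the 150 (40%) passed, 30 higher and 30 lower on HFD, against 40.6% of all probesets, 20.7% higher. The median SE of the genes was 0.087 without the block and 0.031 with it, whereas over all probesets it was 0.038 and 0.036. The 3 genes above were among the 60. The genes' median absolute diet difference was 0.075 units without the block where that of all probesets was 0.076. Within batch 1 alone and within batch 2 alone limma without the block called none of the 150, where 12.6% and 24.4% of all probesets were called. At an unadjusted p below 0.05 in the fit of all arrays stood 10 of the 150, against 46.1% of all probesets.

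With the block, and named after their values were seen, Pttg1 had the largest fall on HFD (−0.45 ± 0.08, SE, limma adjusted p = 2.57e-05, lower in 30 of 37 strains) and Tmem45b the largest rise (0.38 ± 0.10, limma adjusted p = 0.00232, higher in 23 of 37). Stab2 was lower by 0.19 units (−0.19 ± 0.02) in 34 of 37 strains, and Chia, an acidic chitinase, by 0.22 (−0.22 ± 0.03) in 34 of 37. LTR_Affy_10394776, a probeset for a polymorphic long terminal repeat, was lower (−0.26 ± 0.08) in 27 of 37. Tmc7, of the transmembrane channel-like family, was higher (0.27 ± 0.05) in 30 of 37, Trim12a (0.24 ± 0.07) in 25 and Rbp7, a retinol-binding protein of adipose and endothelial tissue, (0.21 ± 0.05) in 27. The adipocyte list was also higher on HFD than on CD (medians 10.39 and 9.90), and its part in these differences was not tested. The range of strain means of the genes was a median of 21.7 times the diet difference with the block, and at the least 4.44 times (Aldh4a1). Without the block these values were 18.2 and 4.25 (Aldh4a1). The choice by r favours a wide strain spread, and a range sets the highest strain against the lowest while the diet difference is one of means. These ratios therefore describe the choice, and none was computed over all named symbols.

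**Figure D5:**
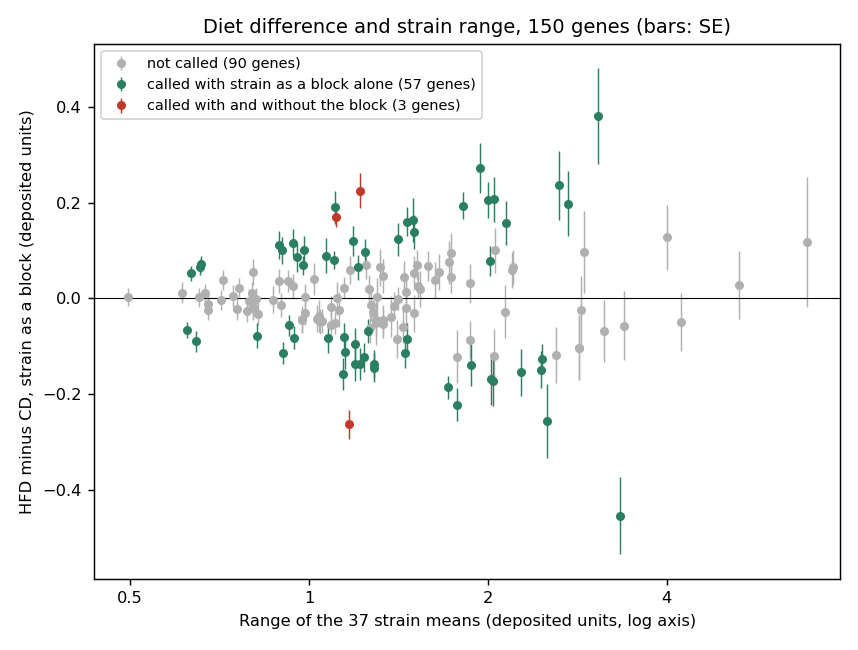
HFD minus CD difference with strain as a block (y axis, deposited units, bars are SE) against the range of the 37 strain means (x axis, deposited units, log axis), with 1 point per gene for the 150 genes. The differences lie between −0.45 and 0.38 on ranges of 0.496 to 6.87 units, with 57 genes called with the block alone, 3 called with and without it and 90 not called.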

How the data were processed

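Quadriceps RNA, pooled per strain and diet, was measured on Affymetrix mouse arrays, and 1 table of 35556 probesets by 79 arrays (42 CD, 37 HFD) was used. The deposited values are normalized scores that behave as a log-type measure: the submitters' processing notes name Affymetrix Expression Console, and all arrays of the deposited table share a mean (8.0) and an SD (2.0). This scaling removes differences of overall level between arrays. The log base and the summarization are not given in the sources used here, so a unit cannot be read as a fold change. The genome build behind the probesets is not given in the sources used here, so genes were placed by symbol in RefSeq (GRCm38.p6), where 134 of the 150 genes matched.

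Members and lists were chosen with earlier results of these data known. Genes were named by these rules: the 20 with the highest r, those next to rank 150, the 5 largest parental differences each way, the called diet differences (up to 5 each way, in the fit without the block), the 5 widest strain ranges (Mela, EG665955, Fbxw11, 4832428D23Rik and Actc1, with ranges of 6.87, 5.30, 4.23, 4.00 and 3.39 units), the largest groups and 12 genes with known alleles. Other genes, such as Hspa8 and those of the blocked diet fit, were named after their values were seen.

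Diet (with batch) and parents (with diet) were tested with limma 3.58.1 in R 4.3.3 over all probesets, with Benjamini-Hochberg adjustment. Clusters came from a 2-component normal mixture fitted by expectation-maximization in Python 3.11.15, and groups from single linkage at an absolute r of 0.8. On simulated arrays of 35556 probesets the diet fit called 98 of 100 probesets shifted by 0.5 and 99 of 100 shifted by 1, and 15 of 35356 unshifted. These shifts are larger than the median absolute diet difference of the genes described here (0.075 without the block). The median SE of the genes without the block was 0.087, against 0.038 over all probesets. The simulated shares therefore do not give the sensitivity of the fit for these genes. There was 1 pool per strain and diet. The p-values of the diet fit without the block measure the spread between strains, and those with the block the spread of HFD minus CD within strains. Those of the parental arrays rest on the spread that strain and diet leave over in these few arrays. Arrays give no counts, and their number limits the precision. Same-strain arrays are paired through the strain: the HFD array correlated best with its own strain's CD array in 37 of 37. Alternatives left out batches, strains or arrays, or changed the scaling, the test or the thresholds. Some genes are not reported here by name.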

Additional observations from a re-analysis of the deposited data

Results flagged for a closer look

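For 9 genes the parents differed in opposite directions on CD and HFD, each from 1 array per strain and diet, so the difference between the diets was not tested. The HFD parental difference (B6 minus D2) minus the CD one was 1.028 for Hspa8 (−0.01 on CD, 1.02 on HFD), 0.886 for Fam83d (−0.07 and 0.81), 1.677 for Fam55d (−0.004 and 1.67), 1.925 for Pcp4l1 (−0.37 and 1.56) and 0.780 for 6430601O08Rik (−0.09 and 0.69). It was 0.7 for Capn11 (−0.33 and 0.37), −0.895 for Pak1 (0.002 and −0.89), 0.202 for Casr (−0.11 and 0.09) and 0.096 for Cdk5rap1 (−0.02 and 0.08). These genes share the D2 array on CD that stood apart in the report, and its part was not tested.

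Among the probesets without a gene symbol, which the choice of genes left out, 13 had an r between diets at or above the lowest of the 150 genes, the highest being 0.932.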

How the results depend on the processing

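Of the 150 genes, 126 to 147 remained among the 150 highest under the alternatives run for batch, strains, probeset, scaling and brightness, and 89 with Spearman's rho. Diet calls numbered 60 with strain as a replicate block (paired strains), 0 in batch 1 alone, 0 in batch 2 alone and 2 to 4 under the others, with 1 of 3 calls higher on HFD after quantile normalization against 2 of 3; without D2, added after seeing the data, 3 were called. The 3 named diet differences kept their direction in 33 of 33 refits and lost the call in 8, those of all 3 genes in each batch alone and that of Cd59a after quantile normalization and without dim probesets. Parental calls were 0 of 142 in the 4 parental arrays, 1 (Fbxw11) after median centring, where 6 of all probesets were called, 0 after quantile normalization or without the diet term, and over the 150 genes chosen in the BXD strains alone (added after seeing the data), and 95 in the fit of 79 arrays, whose spread comes from the strain pairs that chose the genes and which called 1.26% of all probesets, with 48 to 89 there when leaving out each parental array (66 and 70 without B6 on CD or HFD, 89 and 48 without D2 on CD or HFD, where 268, 397, 317 and 149 of all 35556 probesets were called). Separate clusters were found for 63 genes from HFD values alone against 102, and for 72 to 103 otherwise. Genes in groups numbered 60, but 30 at a threshold of 0.9, 28 with Spearman's rho and 77 at 0.7. Without BXD96, BXD97, BXD80 and BXD103 (chosen after seeing the data) 97 genes had clusters and 60 were in groups. The HFD arrays that matched their own strain numbered 35, 35 and 37 of 37 with 20, 50 and 500 genes. The cause of these changes was not tested. One array per strain and diet limits every strain value.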
